A study of Homo sapiens with 24 samples.

Results

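The transcripts of 37 genes of glycolysis and of the cellular response to low oxygen were followed in RNA-seq libraries of A549 cells, an established human lung adenocarcinoma line. The genes were chosen by pathway and by symbol, with earlier results of these data known. Each of the 37 matched a single identifier among the 58721 in the count files. By role they comprised 4 genes of oxygen sensing (HIF1A, EPAS1, EGLN1 and EGLN3), 12 hypoxia-responsive effectors, 3 transporters of glucose or lactate, 9 genes of the preparatory steps of glycolysis, 2 enzymes that set the level of fructose 2,6-bisphosphate, and 7 genes of the payoff steps with lactate dehydrogenase. Knockdown groups were made with 25 nM small interfering RNA (siRNA) delivered by the lipid reagent DharmaFECT: siMYBL2 with 4 libraries, siFOXM1 with 4, and siBoth, which received siRNAs to both genes, with 3. Cells given scrambled siRNA formed siControl, 4 libraries shared by siMYBL2 and siFOXM1, and siControl_Both, 3 libraries made for siBoth. FDI6, a small molecule described as blocking the binding of FOXM1 to DNA, was applied at 20 µM for 24 h in 3 libraries, and control_FDI6 comprised 3 libraries labelled as wild type, with no siRNA listed. The culture medium is labelled as either DMEM or RPMI without saying which library had which, and the time from transfection to harvest is not given in the sources used here. The study names DMSO as the comparator of FDI6, whereas the labels of control_FDI6 name no vehicle.

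Glycolysis splits glucose into pyruvate in the cytosol: hexokinase and phosphofructokinase spend ATP to prepare the sugar, and aldolase cleaves it. The enzymes from GAPDH to pyruvate kinase recover ATP, after which lactate dehydrogenase can turn pyruvate into lactate. When oxygen is scarce, prolyl hydroxylases of the EGLN family no longer mark the HIF alpha subunits HIF1A and EPAS1 for destruction, and the stabilised subunits pair with ARNT and induce genes for glucose uptake, glycolysis, acid export, mitophagy and blood vessel growth. HIF dimers recognise the core letters ACGTG or GCGTG in DNA, and many tumour cells keep glycolysis high even with oxygen present. MYBL2 and FOXM1 are transcription factors best known for driving genes of the cell division cycle.

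The core letters ACGTG or GCGTG, searched on both strands with overlapping matches counted, occurred in the 250 bases before a RefSeq transcription start (GRCh38.p14) for 28 of the 33 members with an entry, 84.8%, beside 47.4% of 27305 genes with an entry. Members had several starts listed in some cases, and start by start the shares were 37 of 61 member starts, 60.7%, and 43.2% of 35116 starts in all. The genes in general were not matched to the members for base composition or type of gene. Many members were also chosen as hypoxia-responsive genes. The difference in shares was therefore not tested and is given as a description only. VEGFA, BNIP3L, NDRG1 and SLC2A3 had no entry. Windows are shown for CA9, EGLN3, ALDOC and BNIP3, each of which was highest in replicate 4 of siMYBL2, siFOXM1 and siControl. A window is also shown for CA12, which had the largest fall after MYBL2 knockdown. These 5 genes were picked after their values were seen. The windows are written 5′ to 3′ on the strand of the gene, with each match in capitals. For CA9 the window is 30 bases around its match. The other windows are the 250 bases before the start, cut where an annotated exon of any gene begins. The CA9 window lies at chr9:35673898-35673927 (plus strand), the EGLN3 window at chr14:33951082-33951324 (minus strand), the ALDOC window at chr17:28576949-28577145 (minus strand), the BNIP3 window at chr10:131981968-131982173 (minus strand) and the CA12 window at chr15:63381847-63382096 (minus strand).
CA9: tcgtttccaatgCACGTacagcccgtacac
EGLN3: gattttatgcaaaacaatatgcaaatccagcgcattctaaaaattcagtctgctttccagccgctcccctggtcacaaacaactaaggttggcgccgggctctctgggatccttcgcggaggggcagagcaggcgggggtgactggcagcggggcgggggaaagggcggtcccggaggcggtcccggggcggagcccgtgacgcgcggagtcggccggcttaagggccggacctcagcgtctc
ALDOC: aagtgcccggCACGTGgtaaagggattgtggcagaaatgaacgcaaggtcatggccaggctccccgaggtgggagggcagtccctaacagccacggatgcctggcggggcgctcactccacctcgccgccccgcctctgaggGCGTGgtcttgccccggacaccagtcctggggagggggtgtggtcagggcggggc
BNIP3: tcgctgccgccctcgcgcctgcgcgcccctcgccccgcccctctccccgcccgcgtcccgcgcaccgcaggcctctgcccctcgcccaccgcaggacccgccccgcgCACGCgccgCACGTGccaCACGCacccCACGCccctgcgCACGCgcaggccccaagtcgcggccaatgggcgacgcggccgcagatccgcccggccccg
CA12: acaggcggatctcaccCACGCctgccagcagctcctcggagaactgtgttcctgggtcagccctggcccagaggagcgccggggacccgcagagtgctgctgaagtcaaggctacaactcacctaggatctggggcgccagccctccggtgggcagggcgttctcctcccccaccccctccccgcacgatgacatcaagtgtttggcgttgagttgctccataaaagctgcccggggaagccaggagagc

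Counting the base next to the start as −1, the CA9 match began at −18 and the CA12 match at −234. BNIP3 held 6 matches between −143 and −104, and ALDOC held 3, at −240, −239 and −108, the first and second being a palindrome read on both strands. The EGLN3 window held none of these letters. The 30 bases of CA9 also lie in an exon annotated to the neighbouring gene ARHGEF39. These matches describe letters in a window and were not tested as binding sites.

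Levels are given as counts per 1000000 counts (CPM), scaled by the trimmed mean of M-values (TMM) over all 24 libraries. Counts on genes ranged from 23065227 to 30140550 in the 18 siRNA libraries and from 16487394 to 21039750 in the 6 libraries of the FDI6 experiment. The targeted transcripts followed the labels: MYBL2 stood at 4.61 to 8.74 CPM in siMYBL2 and at 133 to 178 CPM in siControl, FOXM1 at 10.3 to 13.2 CPM in siFOXM1 and at 108 to 139 CPM in siControl, and both were low in siBoth. FOXM1 was also lower in siMYBL2, at 58.2 to 89.9 CPM, than in siControl, with no overlap. All 5 epithelial markers exceeded 1 CPM in every library, while summed leukocyte markers reached at most 15.6 CPM. Between 9.09 and 10.93% of reads were not aligned in siBoth and between 7.68 and 7.92% in siControl_Both, beside 1.73 to 3.03% elsewhere.

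Before the treatments are compared, the spread between libraries of a single group has to be given, because it was wide for these genes and followed the replicate number. In siMYBL2, siFOXM1 and siControl, replicate 4 held the highest value in all 3 groups for 26 of the 37 members, 70.3%, beside 21.1% of 13930 genes with a mean of at least 1 CPM. CA9, a membrane carbonic anhydrase that is among the most hypoxia-inducible genes, stood at 4.44, 2.88, 2.37 and 30.5 CPM in siControl replicates 1 to 4, at 6.31, 2.51, 3.44 and 37.9 CPM in siMYBL2 and at 3.47, 2.70, 2.77 and 26.7 CPM in siFOXM1. Replicate 4 was thus 9.45, 9.29 and 8.96 times the mean of replicates 1 to 3 in siControl, siMYBL2 and siFOXM1. ALDOC, the brain-type aldolase, showed ratios of 5.94, 6.96 and 5.83 in the same order, the glucose transporter SLC2A3 ratios of 4.04, 3.92 and 3.42, and HK2, the inducible hexokinase, ratios of 3.04, 3.67 and 3.17. EGLN3 and NDRG1 in replicate 4 were between 2.05 and 2.97 times the mean of the other replicates, and PGK1 and BNIP3 between 1.67 and 1.93 times. HIF1A (0.974 to 1.05), EPAS1 (0.908 to 0.960) and PFKM (0.927 to 1.03) lay near 1, and PFKP had its lowest value in replicate 4 of all 3 groups. The highest ratios thus belonged to CA9, ALDOC, SLC2A3 and HK2, while the transcripts of both HIF alpha subunits hardly moved.

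**Figure D1:**
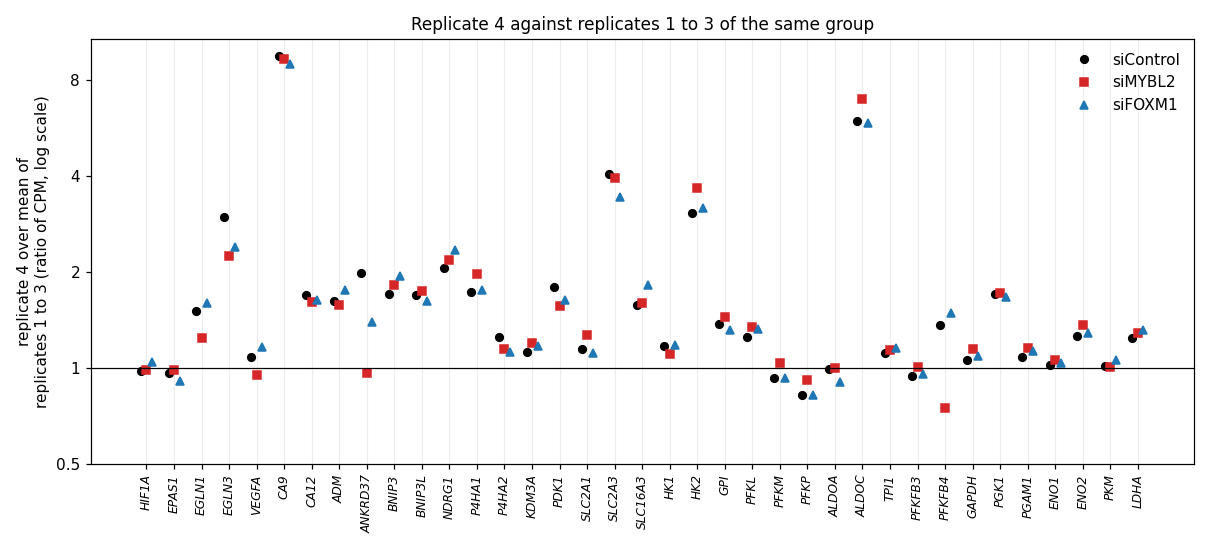
Ratio of CPM in replicate 4 to the mean of replicates 1 to 3 (log scale) for each of the 37 genes in siControl (circles), siMYBL2 (squares) and siFOXM1 (triangles), with a line at a ratio of 1. The 3 symbols of a gene lie close together for most genes, CA9 reaches 8.96 to 9.45 in all 3 groups, and HIF1A and EPAS1 stay near 1.

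The same libraries differed in other measured ways. In replicate 4 of siMYBL2, siFOXM1 and siControl the epithelial adhesion gene CDH1 stood at 78.6, 90.4 and 87.9 CPM, beside 24.2 to 43.3 CPM in replicates 1 to 3, and EPCAM stood at 29.8, 37.6 and 36.1 CPM, beside 4.52 to 16.9 CPM. The other epithelial markers did not rise in this way. KRT8 and KRT18 in replicate 4 lay within the range of replicates 1 to 3 in each group. KRT19 in replicate 4 was the lowest of its group in siFOXM1 and siControl, at 212 and 216 CPM, and within the range in siMYBL2. The mitochondrial share of counts was the lowest of its group in replicate 4 of siMYBL2, siFOXM1 and siControl, at 5.43, 4.52 and 4.70%. In the experiment with siBoth, replicate 2 held the lowest value in both groups for 14 of the 37 members, 37.8%, beside 16.9% of genes, and replicate 1 the highest in both for 18, 48.7%, beside 16.5% of genes. CA9 stood at 45.4, 3.69 and 29.6 CPM in siControl_Both and at 7.02, 3.43 and 14.7 CPM in siBoth, so replicate 2 was the low library of both groups. In the FDI6 experiment at most 4 members, 10.8%, were highest under the same number in both groups. That was replicate 2, beside 9.53% of genes. What set these libraries apart was not tested. Because same-numbered libraries moved together in the knockdown experiments, each knockdown is given both without and with a block, a term for the replicate number that compares each library with its own-numbered control.

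**Figure D2:**
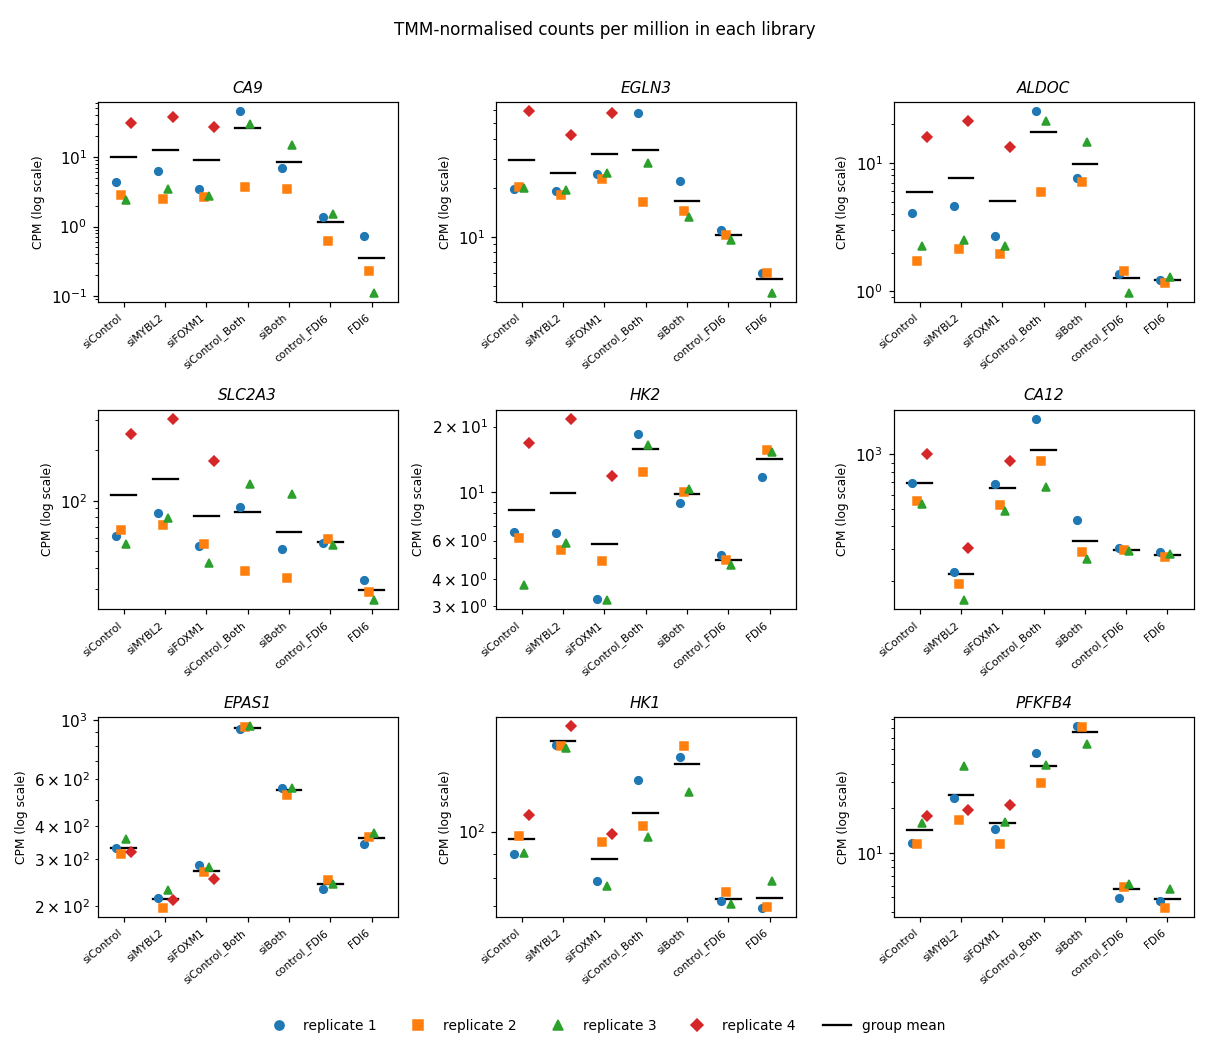
CPM in each library (log scale) of CA9, EGLN3, ALDOC, SLC2A3, HK2, CA12, EPAS1, HK1 and PFKFB4 in the 7 groups, with the marker shape giving the replicate number and a black line the group mean. Replicate 4 lies above the others for CA9, EGLN3, ALDOC, SLC2A3 and HK2 in siMYBL2, siFOXM1 and siControl, whereas EPAS1 is tight within every group and lowest on average in siMYBL2.

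Members spanned a wide range of abundance. Per kilobase of exon the siControl means ran from 0.566 CPM for ANKRD37 to 1028 CPM for GAPDH, and GAPDH, PKM, ENO1, TPI1 and LDHA were the 5 most abundant members in siControl, siControl_Both and control_FDI6. The 16 glycolytic enzymes from hexokinase to lactate dehydrogenase together took 1.497% ± 0.0803 (SD, n = 4) of normalised counts in siControl and 1.79% ± 0.196 (SD, n = 3) in siControl_Both. ALDOA, the usual aldolase of muscle and of most proliferating cells, was counted at only 1.73 to 18.8 CPM. Of its annotated exon bases 42.8% overlap another gene on the same strand, which itself held 1.27 to 3.81 CPM. How the authors' counting treated reads in that overlap is not given in the sources used here, and its part in the low count was not tested.

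The comparison of siMYBL2 with siControl asked which of these transcripts depended on MYBL2. Knockdown lowered EPAS1, CA12 and TPI1 and raised HK1 and PFKM, and of these HK1, EPAS1 and CA12 changed by more than 1.5-fold. A gene is said to have passed where the edgeR quasi-likelihood test gave a Benjamini-Hochberg adjusted p below 0.05 over all genes tested, and to have been called where it also changed by over 1.5-fold. Among the 37 members 1 was called higher and 2 lower, beside 4.38% and 3.52% of the 16065 genes tested, and 2 passed higher and 3 lower, beside 8.53% and 9.53% of genes. The median log2 fold change of the members was −0.12 and that of all genes 0.015.

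EPAS1, the HIF-2 alpha subunit, stood at 329.5, 312, 358 and 319.6 CPM in siControl replicates 1 to 4 and at 215, 197, 230.4 and 210.3 CPM in siMYBL2. Every siMYBL2 library lay below every siControl library, and EPAS1 fell (log2 fold change −0.63, SE 0.07, adjusted p = 0.00079). CA12, a membrane carbonic anhydrase that helps to keep intracellular pH, stood at 696, 552, 532 and 1006 CPM in siControl and at 223, 193, 156 and 306 CPM in siMYBL2. Its groups did not overlap although replicate 4 was the highest in both, and it had the largest change of the members (log2 fold change −1.66, SE 0.25, adjusted p = 0.0026). HK1, the constitutive hexokinase that takes the first step of glycolysis, went the other way, from 89.9, 97.9, 90.3 and 108 CPM to 151, 151, 149 and 166 CPM, with no overlap (log2 fold change 0.68, SE 0.07, adjusted p = 0.00056). PFKM, the muscle-type phosphofructokinase, rose by less (log2 fold change 0.35, SE 0.07, adjusted p = 0.0073). TPI1, which interconverts the triose phosphates, stood at 1024, 994, 971 and 1109 CPM in siControl and at 716, 791, 669.6 and 822 CPM in siMYBL2 and fell (log2 fold change −0.45, SE 0.08, adjusted p = 0.0053). PFKFB4, which makes and removes fructose 2,6-bisphosphate, was measured at 11.6, 11.6, 15.96 and 17.8 CPM in siControl and 23.6, 16.7, 38.5 and 19.6 CPM in siMYBL2, higher in all 4 pairs but spread widely and with an adjusted p of 0.069.

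With replicate number as a block, 9 members passed higher and 20 lower, beside 23.6% and 23.1% of genes, so the share passing higher was near that of genes in general and the share passing lower above it. Most of the falls were small: all 4 oxygen-sensing genes passed lower, EGLN1, the main HIF prolyl hydroxylase, with a log2 fold change of −0.29 (SE 0.05, adjusted p = 0.00051) and HIF1A with −0.14 (SE 0.04, adjusted p = 0.0073). Of the 7 payoff-step genes, 6 passed lower with the block, and PGK1, phosphoglycerate kinase, fell by 0.25 and LDHA by 0.24 on the log2 scale (adjusted p = 5.1e-05 and 9.7e-05). The seventh, the neuronal enolase ENO2, passed higher at 0.35 (adjusted p = 4.9e-05). Among the effectors VEGFA, ADM, NDRG1, P4HA1 and CA12 passed lower and CA9, BNIP3 and P4HA2 higher. The collagen prolyl hydroxylase P4HA1 was lower in every one of the 4 pairs at −0.46 (adjusted p = 9.5e-06), and NDRG1, a stress-responsive differentiation gene, at −0.48 (adjusted p = 3.2e-05). PFKFB4 was called higher in this fit and in 5 of the other alternatives, at 0.76 (SE 0.14, adjusted p = 0.00056) with the block.

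Leaving replicate 4 out of the groups, an alternative added after the data were seen, gave 11 members that passed, 5 higher and 6 lower, beside 8.89% and 11.1% of genes. The called genes were then EPAS1 at −0.65, CA12 at −1.65, HK1 at 0.69 and PFKFB4 at 0.99 (adjusted p = 0.002, 0.0005, 0.0005 and 0.041). CA9 had no stable value, since its log2 fold change was 0.33 with all libraries (SE 1.04, adjusted p = 0.86) and between −1.29 and 1.95 as single libraries were left out.

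siFOXM1 was compared with the same siControl libraries, so its values share their errors with those of siMYBL2. No member passed in the edgeR test, beside 0.277% of the 15892 genes tested that passed higher and 1.09% that passed lower, and none was called, beside 0.0755% and 0.591% of genes. At an unadjusted p below 0.05 there were 3 members, and DESeq2 passed 1, EPAS1 (adjusted p = 0.0066). The median of the members was −0.07 and that of all genes 0.003.

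EPAS1 stood at 284, 267, 281 and 252 CPM in siFOXM1, below every siControl value, with a smaller difference than after MYBL2 knockdown (log2 fold change −0.29, SE 0.07, adjusted p = 0.08). HIF1A stood at 515, 380.1, 412 and 455 CPM in siFOXM1 and 550.2, 431, 509.6 and 484 CPM in siControl, lower in all 4 pairs while the groups overlapped (log2 fold change −0.17, SE 0.11, adjusted p = 0.59). CA12, the gene with the largest fall after MYBL2 knockdown, was at 685, 524, 484 and 918 CPM, and its log2 fold change was −0.10 (SE 0.25, adjusted p = 0.93). For HK1 it was −0.15 (SE 0.10, adjusted p = 0.62), with 78.97, 95.3, 77.05 and 98.9 CPM in the siFOXM1 libraries.

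With the block, 1 member passed higher and 16 lower, beside 12.3% and 14.0% of genes, and none of them changed by more than 1.5-fold. The lower members came from each role except the fructose 2,6-bisphosphate enzymes. EPAS1 fell at −0.29 (SE 0.03, adjusted p = 8.6e-08), SLC2A3 at −0.37 (adjusted p = 2.4e-07), NDRG1 at −0.34 (adjusted p = 6.3e-07) and GAPDH at −0.17 (adjusted p = 4.7e-05). HK2 had the largest fall at −0.53 (SE 0.11, adjusted p = 0.0005), from 6.55, 6.18, 3.76 and 16.7 CPM in siControl to 3.24, 4.83, 3.19 and 11.9 CPM in siFOXM1, lower in each of the 4 pairs although replicate 4 of siFOXM1 exceeded 3 of the siControl libraries. The lactate exporter SLC16A3 fell at −0.26 and the mitophagy receptor BNIP3 at −0.23 (adjusted p = 5.1e-05 and 0.00011). PFKFB3, which favours synthesis of fructose 2,6-bisphosphate and so activates phosphofructokinase, was the only member to pass higher, at 0.15 (SE 0.03, adjusted p = 0.00023). Without replicate 4 and without the block no member passed, and 9 had an unadjusted p below 0.05.

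In siBoth against siControl_Both, the members moved mostly downward. Of the 37, 31 had a log2 fold change below 0 and the median was −0.27, beside 0.017 for all genes. Called higher was PFKFB4, and called lower were EPAS1, CA12, NDRG1, P4HA1 and HK2, beside 2.8% of the 15812 genes tested that were called higher and 3.64% called lower. Including smaller changes, 2 passed higher and 6 lower, beside 4.55% and 7.77% of genes.

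EPAS1 was at 919, 936 and 946 CPM in siControl_Both replicates 1 to 3 and at 556, 523 and 554 CPM in siBoth, a narrow spread within each group and no overlap (log2 fold change −0.78, SE 0.08, adjusted p = 0.0011). CA12 was at 1577, 915 and 664 CPM in siControl_Both and at 437, 289.9 and 266 CPM in siBoth (log2 fold change −1.67, SE 0.31, adjusted p = 0.014). PFKFB4 was at 47.3, 29.6 and 39.2 CPM in siControl_Both and at 71.9, 70.5 and 54.6 CPM in siBoth, so that every siBoth library was the higher (log2 fold change 0.77, SE 0.17, adjusted p = 0.028). These groups did not overlap for any of the 3 genes. P4HA1, which hydroxylates proline in collagen, fell from 96.7, 71.6 and 87 CPM to 55.99, 42.01 and 59.7 CPM (log2 fold change −0.69, SE 0.15, adjusted p = 0.025). NDRG1 fell from 214, 122 and 158 CPM to 113, 88.5 and 79.8 CPM (log2 fold change −0.81, SE 0.21, adjusted p = 0.039), and HK2 from 18.4, 12.3 and 16.5 CPM to 8.96, 10.1 and 10.3 CPM (log2 fold change −0.68, SE 0.16, adjusted p = 0.033). PFKM and TPI1 passed with smaller changes, in the same directions as in siMYBL2, at 0.35 and −0.42 (adjusted p = 0.025 and 0.037). HK1 was at 128, 103 and 97.6 CPM in siControl_Both and 143, 151 and 121 CPM in siBoth, higher in all 3 pairs, and its adjusted p was 0.12 without the block and 0.0026 with it.

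With the block, 3 members passed higher and 22 lower, beside 16.3% and 18.5% of genes. The 10 called genes were the 6 called without the block and EGLN3, CA9, SLC16A3 and ALDOC, all 4 lower. The share of all genes called with the block is not given here, so the larger count cannot be read as particular to the members. EGLN3, a prolyl hydroxylase that is itself induced in hypoxia, was at 57.9, 16.3 and 28.3 CPM in siControl_Both and 22.02, 14.3 and 13.1 CPM in siBoth, lower in each pair (−0.93, SE 0.16, adjusted p = 0.00022). CA9 was lower in each pair as well (−1.46, SE 0.28, adjusted p = 0.00066), with siBoth replicate 3 above siControl_Both replicate 2. ALDOC was lower in 2 of the 3 pairs (−0.73, adjusted p = 0.02). SLC16A3, which carries lactate out of the cell, was lower in each pair (−0.62, adjusted p = 0.0002). All 3 transporters and 5 of the 7 payoff-step genes passed lower, LDHA by the most among the latter at −0.51 (SE 0.07, adjusted p = 5.3e-05). VEGFA, the angiogenic growth factor, differed by −0.07 (SE 0.08, adjusted p = 0.52).

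The number of members called in siBoth changed as libraries were left out. Such fits have fewer libraries in a group, and the shares of all genes called in them are not given here. A drop in calls therefore cannot be read as particular to these members. EPAS1 was called in each of the 6 fits that left out a single library, with a highest adjusted p of 0.0083, whereas the number of members called fell from 6 to between 1 and 5. Without siBoth replicate 1 there were 3, without siBoth replicate 2 there was 1, without siControl_Both replicate 1 there were 3 and without siControl_Both replicate 3 there were 2. Leaving replicate 2 out of both groups, added after the data were seen, gave 2 called, EPAS1 at −0.75 and P4HA1 at −0.67 (adjusted p = 0.032 and 0.044). CA12 was then at −1.67 with an adjusted p of 0.14, and PFKFB4 at 0.55 with 0.17. The share of reads not aligned was higher in siBoth than in siControl_Both, and its part in these differences was not tested.

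**Figure D3:**
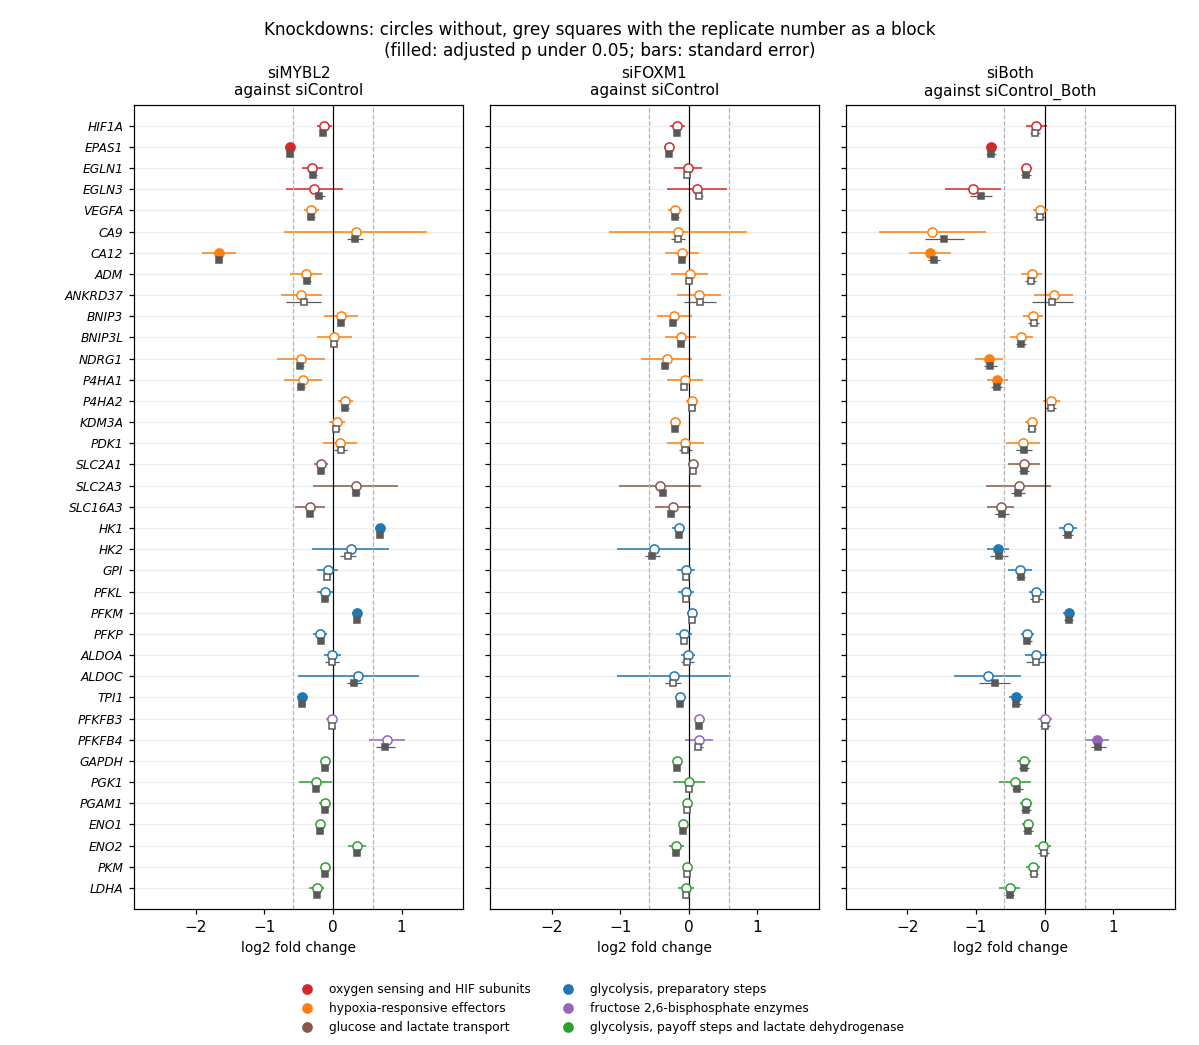
Log2 fold change (x axis) of the 37 genes in siMYBL2, siFOXM1 and siBoth against their controls, with bars of 1 standard error. Coloured circles give the fit without and grey squares the fit with the block, filled symbols passed, and dashed lines mark a 1.5-fold change. EPAS1 and CA12 lie left of 0 in siMYBL2 and siBoth, HK1 and PFKFB4 lie right of it, and the bars of CA9, ALDOC, SLC2A3 and HK2 shrink with the block.

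HIF1A, VEGFA, SLC2A1, PDK1 and LDHA were followed in every library whether called or not. HIF1A was at 521, 383, 449 and 444 CPM in siMYBL2, lower than siControl in all 4 pairs, and at 708, 469 and 567 CPM in siBoth and 721, 587 and 594 CPM in siControl_Both, lower in all 3 pairs without passing in either fit (log2 fold change −0.12, SE 0.15, adjusted p = 0.64 without the block). VEGFA was at 52.1, 39.5, 41.3 and 48.01 CPM in siControl, 41.6, 31.8, 36.7 and 34.9 CPM in siMYBL2 and 39.1, 38.5, 36.2 and 43.9 CPM in siFOXM1, overlapping the controls but lower in all 4 pairs of both knockdowns. In siBoth it was at 102, 85.04 and 77.6 CPM and in siControl_Both at 95.8, 86.7 and 94.7 CPM, with no common direction. HIF1A and VEGFA both passed lower with the block in siMYBL2 and in siFOXM1.

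SLC2A1, the glucose transporter found in most cells, was at 191, 183, 197 and 217 CPM in siControl, 169, 148, 173 and 207 CPM in siMYBL2 and 210.2, 192, 201 and 224 CPM in siFOXM1. It was lower in all 4 pairs of siMYBL2 (−0.18, adjusted p = 0.0038 with the block) and higher in all 4 of siFOXM1, where it did not pass (0.06, adjusted p = 0.14). In siBoth, SLC2A1 was at 159.5, 113 and 92.3 CPM and in siControl_Both at 196, 138 and 116 CPM, lower in all 3 pairs (−0.30, adjusted p = 0.0021 with the block). PDK1 was scarcer, at 8.25, 8.45, 11.5 and 16.8 CPM in siControl, 10.8, 9.32, 11.4 and 16.4 CPM in siMYBL2 and 11.1, 8.34, 8.73 and 15.2 CPM in siFOXM1, and passed in neither fit of either knockdown. It was at 14.5, 9.10 and 13.3 CPM in siBoth and 19.4, 10.2 and 16.3 CPM in siControl_Both (adjusted p = 0.45 without and 0.046 with the block). LDHA, which turns pyruvate into lactate, was at 1964, 1828, 1843 and 2326 CPM in siControl, 1615, 1615, 1491 and 2021 CPM in siMYBL2 and 1938, 1780.0, 1701 and 2365 CPM in siFOXM1. Its levels were 1767, 1424 and 1971 CPM in siBoth and 2720.0, 2077 and 2542 CPM in siControl_Both, which did not overlap although the adjusted p was 0.059 without the block.

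The differences between knockdown effects were tested on all 24 libraries. Because siMYBL2 and siFOXM1 share siControl, the difference of their effects is the same as siMYBL2 against siFOXM1. HK1 (0.82, SE 0.10, adjusted p = 1.4e-06) and PFKFB4 (0.63, SE 0.22, adjusted p = 0.039) were called higher and CA12 (−1.57, SE 0.26, adjusted p = 9.9e-05) lower under siMYBL2 than under siFOXM1, beside 6.28% and 4.51% of the 17752 genes tested. PFKM and ENO2 also passed higher, at 0.29 and 0.53, and EPAS1 and TPI1 lower, at −0.35 and −0.32 (adjusted p = 0.0008, 0.0019, 0.00014 and 0.003). The count of called members was between 2 and 6 as single libraries were left out, with 6 without siFOXM1 replicate 4, and 5 with the block. The shares of all genes called in those fits are not given here.

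Whether the effect of siBoth differed from that of siMYBL2 depended on the block. Without it no member passed or was called in edgeR, beside 0.0113% of genes called higher and 0.214% called lower, and 2 members had an unadjusted p below 0.05. With it 11 members passed lower and none higher, beside 4.53% and 2.05% of genes. Called lower were CA9 (−1.79, adjusted p = 0.0031), SLC2A3 (−0.73, adjusted p = 0.0022), HK2 (−0.89, adjusted p = 0.0088), EGLN3 (−0.73, adjusted p = 0.015) and ALDOC (−1.04, adjusted p = 0.034). The share of all genes called in the blocked fit is not given here. For EPAS1, CA12 and PFKFB4 the differences were −0.15 (SE 0.09), 0.00 (SE 0.39) and −0.02 (SE 0.33), none of which passed in either fit. The siBoth and siMYBL2 experiments had separate controls and libraries, so the second siRNA and the experiment cannot be told apart here.

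FDI6 against control_FDI6 gave changes in both directions. HK2, NDRG1, PDK1 and HIF1A were called higher and SLC2A3, EGLN3 and CA9 lower, beside 8.0% of the 15240 genes tested that were called higher and 5.77% called lower. In all, 8 members passed higher and 13 lower, beside 21.0% and 17.9% of genes. The median of the members was −0.06 and that of all genes −0.012.

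HK2 stood at 5.15, 4.87 and 4.63 CPM in control_FDI6 replicates 1 to 3 and at 11.7, 15.7 and 15.2 CPM in FDI6, the largest rise of the members (log2 fold change 1.54, SE 0.15, adjusted p = 1.6e-05). HK1, at 71.7, 74.8 and 70.9 CPM and 69.5, 69.7 and 78.9 CPM, had a log2 fold change of 0.00 (SE 0.08, adjusted p = 0.99). As a share of the per-kilobase CPM of both hexokinases, HK2 was 7.27% ± 0.376 in control_FDI6 and 18.5% ± 2.17 in FDI6 (SD, n = 3 each). HIF1A stood at 229, 216 and 236 CPM in control_FDI6 and at 432, 323 and 295 CPM in FDI6, with no overlap (log2 fold change 0.62, SE 0.11, adjusted p = 0.0013). It was not called without FDI6 replicate 1, its highest library, or without control_FDI6 replicate 2. Nor was it called with upper-quartile scaling or GC and length correction. In FDI6 replicate 1, 3.03% of reads were not aligned, beside 2.11% and 1.9% in replicates 2 and 3. EPAS1 rose from 232, 249 and 242 CPM to 342, 364 and 375 CPM (log2 fold change 0.58, SE 0.06, adjusted p = 4e-05), just under 1.5-fold. Both HIF alpha transcripts were thus higher with FDI6, while EGLN3, at 11.01, 10.2 and 9.49 CPM and 5.95, 6.001 and 4.51 CPM, fell (log2 fold change −0.91, SE 0.15, adjusted p = 0.0007).

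The hypoxia-responsive effectors split, with 5 passing higher and 2 lower of 12. NDRG1 rose from 36.5, 37.4 and 35.2 CPM to 56.2, 64.5 and 65.4 CPM (log2 fold change 0.77, SE 0.08, adjusted p = 4.3e-05). PDK1, the kinase that holds pyruvate back from mitochondrial oxidation, rose from 6.72, 4.92 and 4.80 CPM to 10.3, 9.96 and 7.01 CPM (log2 fold change 0.73, SE 0.19, adjusted p = 0.0096). The histone demethylase KDM3A, the mitophagy receptor BNIP3L and VEGFA rose by less, at 0.50, 0.35 and 0.34 (adjusted p = 0.00079, 0.0053 and 0.0079). KDM3A stood at 36.1, 38.7 and 40.4 CPM in control_FDI6 and 56.9, 56.05 and 50.1 CPM in FDI6, and VEGFA at 26.8, 29.6 and 29.4 CPM and 35.1, 37.6 and 36.1 CPM, and neither pair of groups overlapped. ADM, a vasodilator peptide, fell at −0.40 (SE 0.07, adjusted p = 0.0014). CA9 was barely counted in this experiment, with 25, 13 and 28 reads in control_FDI6 and 12, 4 and 2 in FDI6. The groups overlapped in CPM, at 1.36, 0.627 and 1.51 and 0.728, 0.233 and 0.111, and its call (log2 fold change −1.70, SE 0.57, adjusted p = 0.033) rests on those reads. BNIP3, P4HA1, P4HA2 and CA12 had log2 fold changes between −0.09 and 0.01 and did not pass.

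Of the transporters, 2 of 3 passed lower with FDI6, as did 3 of the 9 preparatory-step genes and 5 of the 7 payoff-step genes, and HK2 was the only gene of these roles to pass higher. SLC2A3 fell from 56.4, 59.6 and 54.5 CPM to 33.8, 28.8 and 25.6 CPM (log2 fold change −0.96, SE 0.10, adjusted p = 3.1e-05), whereas SLC2A1, the more abundant glucose transporter per kilobase, stood at 97.7, 106 and 96.3 CPM and 84.7, 96.02 and 93.4 CPM and did not pass (log2 fold change −0.13, SE 0.08, adjusted p = 0.19). SLC16A3 fell at −0.46 (SE 0.16, adjusted p = 0.039). GPI, PFKL and TPI1 of the preparatory steps fell at −0.39, −0.46 and −0.43 (adjusted p = 0.00021, 0.0024 and 0.0002). In the payoff steps 5 of 7 genes fell, namely GAPDH (−0.39), ENO1 (−0.38), PGAM1 (−0.35), PKM (−0.24) and PGK1 (−0.23), with adjusted p between 0.00014 and 0.0061. None of these falls in the glycolytic enzymes reached 1.5-fold. LDHA, at 1909, 1829 and 1912 CPM in control_FDI6 and 1995, 1768 and 1784 CPM in FDI6, differed by −0.03 (SE 0.06), and PFKP, the most abundant phosphofructokinase, by 0.06 (SE 0.07). The 16 glycolytic enzymes took 1.62% ± 0.0320 of normalised counts in control_FDI6 and 1.33% ± 0.00825 in FDI6 (SD, n = 3 each), with ranges of 1.595 to 1.653% and 1.326 to 1.342%.

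FDI6 called 4 members after adjustment for GC content and transcript length, NDRG1 and HK2 higher and EGLN3 and SLC2A3 lower. With that adjustment 7 members passed higher and 14 lower, beside 8 and 13 without it. The shares of all genes that passed or were called with that adjustment are not given here. As single libraries were left out, 6 to 8 members were called. The sum of the 5 epithelial markers, mostly KRT8 and KRT18, was 4286 to 5084 CPM in FDI6 and 7577 to 8255 CPM in control_FDI6. CDH1 and EPCAM were also lower with FDI6, but KRT19 was higher, at 64.85 to 76.66 CPM beside 55.14 to 56.49 CPM. The sum of 5 fibroblast markers was 6.01 to 9.63 CPM in FDI6 and 18.4 to 21.1 CPM in control_FDI6. Of these 5, 1 in each group exceeded 1 CPM in every library and 1 was at 0 in every library. The part of the markers in these differences was not tested.

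**Figure D4:**
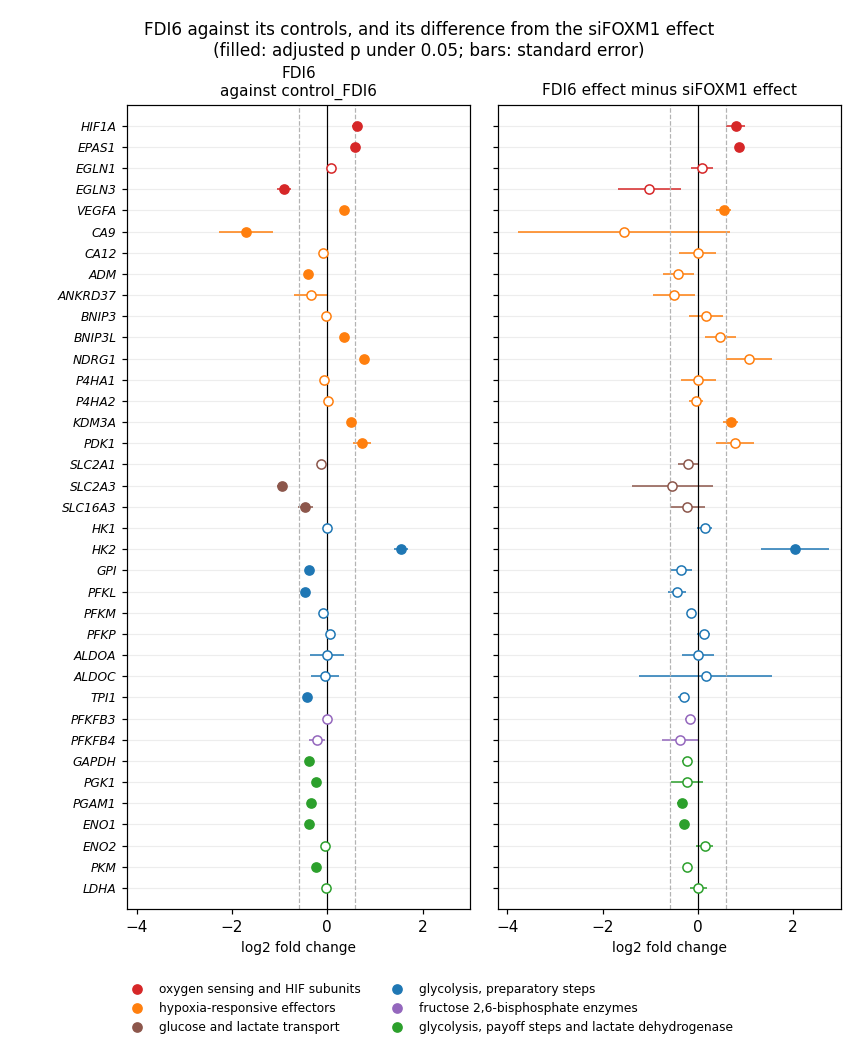
Log2 fold change (x axis) of the 37 genes in FDI6 against control_FDI6 and the difference between the FDI6 and siFOXM1 effects, with bars of 1 standard error, filled circles for genes that passed and dashed lines at a 1.5-fold change. HK2 lies furthest right in both panels (1.54 and 2.04), and GAPDH, PGK1, PGAM1, ENO1 and PKM, all filled, lie left of 0 in the first panel.

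The effects of FDI6 and of siFOXM1, which both aim at FOXM1, were set against each other in a test of their difference. The FDI6 effect was called higher for HK2 (2.04, SE 0.71, adjusted p = 0.046), EPAS1 (0.86, SE 0.09, adjusted p = 1.2e-06), HIF1A (0.79, SE 0.20, adjusted p = 0.0082) and KDM3A (0.69, SE 0.16, adjusted p = 0.0042) and lower for none, beside 7.11% and 4.1% of genes. EPAS1 thus fell with the block in siFOXM1 and rose in FDI6. VEGFA passed higher at 0.54, and ENO1 and PGAM1 lower at −0.29 and −0.33 (adjusted p = 0.014, 0.011 and 0.034). FOXM1 itself stood at 91.3 to 112 CPM in FDI6 and 126 to 132 CPM in control_FDI6, against 10.3 to 13.2 CPM in siFOXM1. MYBL2 stood at 118 to 155 CPM in FDI6 and 189 to 199 CPM in control_FDI6. The transfection and the experiment differed between these treatments as well and cannot be told apart from the agent. As single libraries were left out, between 3 and 6 members were called, and with the block 8 were. HIF1A, EPAS1 and KDM3A were called in each of the 14 fits without a single library, whereas HK2 was called in 3 of them: those without siFOXM1 replicate 4, siControl replicate 2 and siControl replicate 3. The shares of all genes called in these fits and with the block are not given here.

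The 3 control groups, none of which targeted a gene, differed from each other in more of these members than any knockdown did from its own control without the block. In siControl_Both against siControl, 8 members were called higher and 1 lower, beside 6.98% and 7.67% of the 15963 genes tested. In control_FDI6 against siControl, 2 were called higher and 17 lower, beside 12.4% and 15.4% of genes, with a median over the members of −0.65. In control_FDI6 against siControl_Both, 2 were called higher and 19 lower, beside 16.8% and 18.0% of genes, with a median of −1.06. These 3 comparisons share control groups, so they are given side by side and are not independent. Summed epithelial markers, mostly KRT8 and KRT18, stood at 4825 to 6561 CPM in siControl, 2733 to 4710 CPM in siControl_Both and 7577 to 8255 CPM in control_FDI6. The 5 markers did not move together. KRT19 was lower in control_FDI6, at 55.1 to 56.5 CPM, than in siControl, at 216 to 319 CPM. CDH1 and EPCAM in control_FDI6 lay within their siControl ranges. The part of these markers in the differences was not tested.

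EPAS1 was the clearest case, at 329.5, 312, 358 and 319.6 CPM in siControl, 919, 936 and 946 CPM in siControl_Both and 232, 249 and 242 CPM in control_FDI6, with no overlap between any pair of groups. It was higher in siControl_Both than in siControl (log2 fold change 1.5, SE 0.07, adjusted p = 4.1e-05) and lower in control_FDI6 than in either (−0.44 and −1.93, adjusted p = 0.00058 and 3.5e-08). The value of siBoth, at 556, 523 and 554 CPM, therefore lay above that of siControl, although EPAS1 fell in siBoth against its own control. HIF1A was highest in siControl_Both, at 721, 587 and 594 CPM, and lowest in control_FDI6, at 229, 216 and 236 CPM, which was below siControl (log2 fold change −1.11, SE 0.09, adjusted p = 1.6e-05). The share of EPAS1 in the per-kilobase CPM of both HIF alpha genes was 32.1% ± 1.81 (SD, n = 4) in siControl, 51.1% ± 3.20 in siControl_Both and 42.9% ± 1.75 in control_FDI6 (SD, n = 3 each).

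Effectors and transporters were mostly lowest in control_FDI6. SLC16A3 stood at 33.3, 33.96 and 32.1 CPM there and at 150.5, 118, 113 and 199.9 CPM in siControl (log2 fold change −2.12, SE 0.19, adjusted p = 2.9e-05). SLC2A1 was lower as well (log2 fold change −0.96, SE 0.07, adjusted p = 1.6e-05), as were NDRG1, BNIP3L and CA12 (−1.48, −1.32 and −1.21, adjusted p = 0.0018, 0.00041 and 0.00079). ADM was an exception, at 66.3, 72.8 and 69.8 CPM in control_FDI6 and 23.1, 32.9, 31.9 and 47.4 CPM in siControl (log2 fold change 1.06, SE 0.19, adjusted p = 0.0013), and PFKFB3 was the other member called higher there, at 572, 575 and 555 CPM against 358, 366, 421 and 359.5 CPM (0.61, adjusted p = 0.00013). GAPDH, ENO1, GPI, PFKP, PGAM1, PFKM and TPI1 also passed higher in control_FDI6, at most 0.48 on the log2 scale. PFKFB4 had the widest gap outside CA9 and ALDOC, with 47.3, 29.6 and 39.2 CPM in siControl_Both and 4.99, 5.89 and 6.20 CPM in control_FDI6 (log2 fold change −2.74, SE 0.18, adjusted p = 1.6e-06). In siControl_Both against siControl, EPAS1, PFKFB4, ALDOA, VEGFA, ADM, ENO2, P4HA2 and KDM3A were called higher, at 1.5 for EPAS1, 1.44 for PFKFB4 and 1.03 for VEGFA, and PGAM1 lower at −0.69 (adjusted p = 0.00096).

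P4HA2, KDM3A, ALDOA, VEGFA and PFKFB4 followed the order of EPAS1 in their means, highest in siControl_Both and lowest in control_FDI6, and were called in all 3 comparisons of controls. The share of all genes called in all 3, or without overlap between control groups, is not given here. With GC and length correction, 14 members were called in control_FDI6 against siControl, ALDOA and PFKFB4 among them but not P4HA2, KDM3A or VEGFA. The share of all genes called with that correction is not given here. P4HA2, a collagen prolyl hydroxylase like P4HA1, was at 119, 112 and 108 CPM in siControl_Both, 65.8, 57.8, 60.8 and 76.8 CPM in siControl and 36.8, 35.5 and 33.9 CPM in control_FDI6. KDM3A was at 107, 84.8 and 103 CPM in siControl_Both, at 60.1, 56.9, 64.4 and 67.6 CPM in siControl and at 36.1, 38.7 and 40.4 CPM in control_FDI6. ALDOA was at 18.8, 13.8 and 16.8 CPM, at 7.50, 7.43, 7.67 and 7.44 CPM and at 3.42, 2.90 and 3.61 CPM in the same groups. For P4HA2, KDM3A and ALDOA, as for VEGFA and PFKFB4, no pair of control groups overlapped. As given above, ALDOA counts were low and 42.8% of its exon bases overlap another gene on the same strand. Reads left ambiguous between genes made up 7.88 to 8.12% of siControl_Both libraries, 9.32 to 9.6% of siControl and 10.74 to 11.2% of control_FDI6. Their part in the ALDOA differences was not tested. VEGFA, given above for the siRNA groups, was lower in control_FDI6 than in siControl_Both (log2 fold change −1.67, SE 0.07, adjusted p = 1.7e-07). PGAM1, the phosphoglycerate mutase, had the opposite order, at 260.1, 229 and 228 CPM in siControl_Both, 375, 355, 407 and 409.8 CPM in siControl and 464, 471 and 455 CPM in control_FDI6. ENO2 was at 168, 118 and 144 CPM in siControl_Both and 77.4, 71.1, 78.4 and 95.2 CPM in siControl (log2 fold change 0.84, SE 0.13, adjusted p = 0.0026). Without siControl replicate 4, 14 members were called between siControl_Both and siControl, and the share of all genes called in that fit is not given here.

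The siControl and siControl_Both cells both received scrambled siRNA, whereas control_FDI6 is listed without it, and the 3 groups belong to separate experiments. The transfection, the experiment, the medium and the share of unaligned reads cannot be told apart as the source of these differences.

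**Figure D5:**
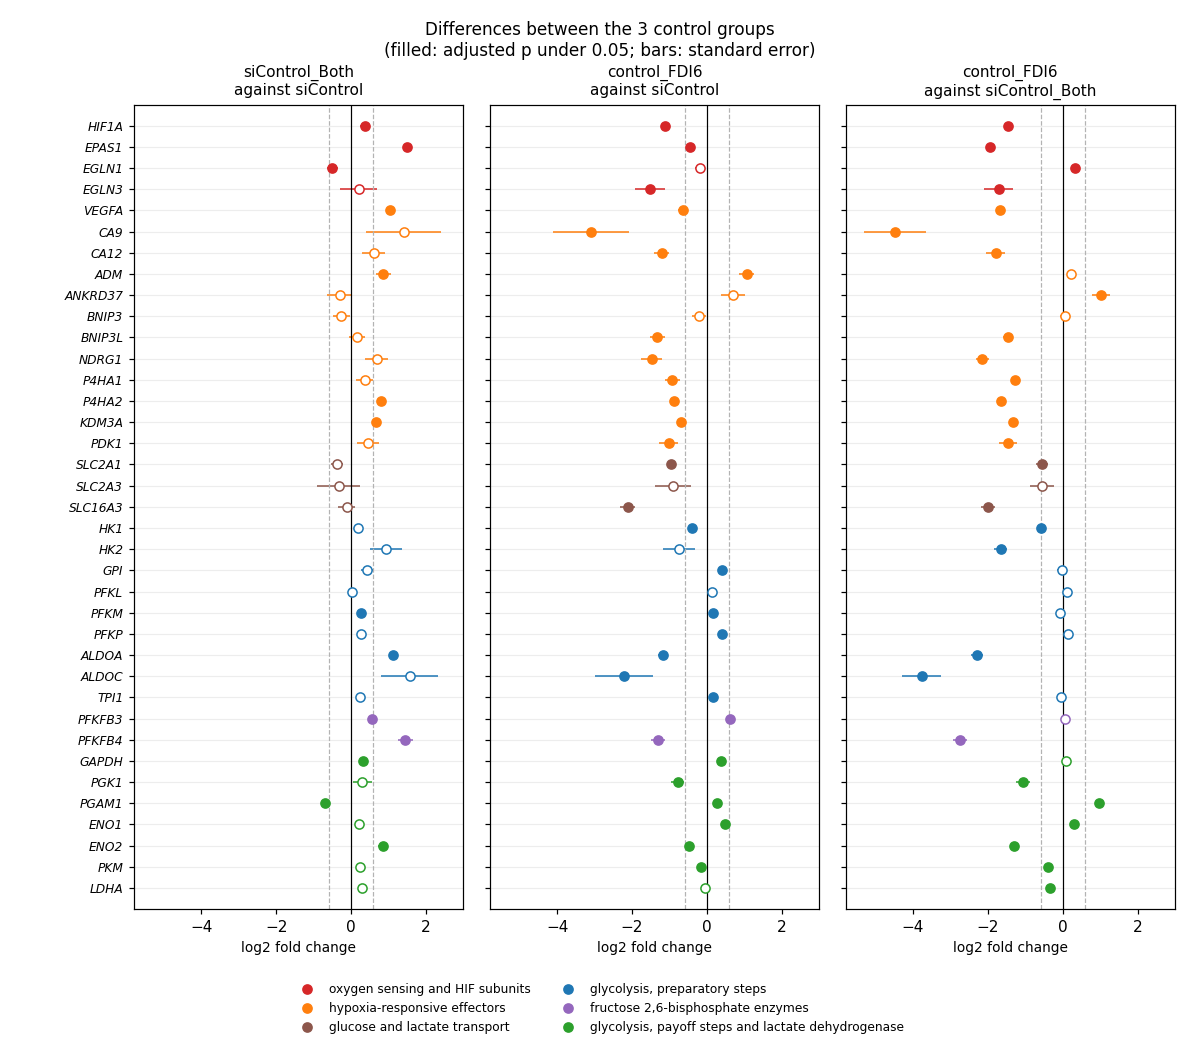
Log2 fold change (x axis) of the 37 genes between the 3 control groups, with bars of 1 standard error, filled circles for genes that passed and dashed lines at a 1.5-fold change. EPAS1 lies at 1.5 in the panel of siControl_Both against siControl and at −1.93 in that of control_FDI6 against siControl_Both, and most effectors and transporters lie left of 0 in both panels with control_FDI6.

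Other genes of the same pathways were counted from fixed lists. Of 32 other hypoxia-responsive genes, all tested, siMYBL2 called none higher and 3 lower, beside 4.38% and 3.52% of all genes. In siBoth 1 was called higher and 2 lower, beside 2.8% and 3.64%, and in FDI6 6 higher and 4 lower, beside 8.0% and 5.77%. JMJD6, a dioxygenase, was called lower in siMYBL2 (mean 30.7 against 51.4 CPM, log2 fold change −0.74, SE 0.08, adjusted p = 0.00044), as were the secreted stanniocalcin STC2 (−1.0, SE 0.15, adjusted p = 0.0026) and the heme oxygenase HMOX1 (−0.72, SE 0.16, adjusted p = 0.017). In siBoth the genes called were FUT11, a fucosyltransferase (−0.59, SE 0.09, adjusted p = 0.0064), the repressor BHLHE41 (0.94, SE 0.21, adjusted p = 0.028) and MXI1, a MAX-binding antagonist of MYC (−0.66, SE 0.18, adjusted p = 0.045). In FDI6 the lowest adjusted p belonged to STC1, at 38.5 to 49.1 CPM in FDI6 and 4.85 to 6.71 CPM in control_FDI6 (2.88, SE 0.14, adjusted p = 1e-07). STC2 (1.35) and the lipid droplet protein PLIN2 (1.03) were called higher with it. STC2 was thus called in both comparisons and in opposite directions, −1.0 after MYBL2 knockdown and 1.35 with FDI6.

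Of 16 other regulators of the HIF pathway, 15 were tested, and USP20 in siBoth was the only one called in a treatment comparison (0.68, SE 0.12, adjusted p = 0.0099). Of 35 other genes of glycolysis, gluconeogenesis and pyruvate use, 26 were tested in the knockdown comparisons and 25 in FDI6. The transporter SLC2A12 was called higher in siMYBL2 (0.82, SE 0.22, adjusted p = 0.03) and in FDI6 (1.54, SE 0.30, adjusted p = 0.0022), and PFKFB2, a relative of PFKFB3 and PFKFB4, in FDI6 (0.78, SE 0.11, adjusted p = 0.00019). In siMYBL2 the glycerol phosphate dehydrogenase GPD1 was called higher as well (1.17, SE 0.33, adjusted p = 0.039). MPC2, a subunit of the mitochondrial pyruvate carrier, was called lower with FDI6 (−0.61, SE 0.12, adjusted p = 0.0023). TIGAR, which lowers fructose 2,6-bisphosphate, was called higher with FDI6 at an adjusted p that rounds to the threshold (0.79, SE 0.29, adjusted p = 0.05). Of the 7 pentose phosphate genes, RPIA, which interconverts ribose and ribulose phosphates, was called lower in siMYBL2 (−0.70, SE 0.13, adjusted p = 0.0081) and in siBoth (−0.59, SE 0.14, adjusted p = 0.034), and 4 passed lower in FDI6 with none called, beside 17.9% of all genes that passed lower there. In siFOXM1 none of the genes of these 4 lists passed.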

How the data were processed

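RNA-seq (polyA capture, paired-end 150 bp) was deposited as 24 tables of whole-number counts per Ensembl gene. Per the labels and the study's methods the authors trimmed reads with Trim Galore, aligned them to hg38 with STAR and the GENCODE V29 annotation, and made the deposited counts with HTSeq. Their strand setting is not given in the sources used here, so reads from overlapping opposite-strand genes cannot be told apart: these cover 40.3% of the exon bases of ANKRD37, 35.7% of CA9 and 17.6% of GAPDH. GAPDH, BNIP3 and PGAM1 also have 65, 44 and 13 named pseudogenes, and their counts are uncertain to that extent. HTSeq totals that name no gene, 18.47 to 26.17% of each library, were left out.

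The groups came from the labels. The 37 members and all lists were chosen with earlier results of these data known. By a fixed rule all members are described by role, values in every library are given for members called in a comparison (the 8 with the lowest adjusted p where more were called) and for HIF1A, VEGFA, CA9, SLC2A1, PDK1 and LDHA, and at most 4 called genes of each other list are named per comparison, those with the lowest adjusted p, except for a gene that is not reported here. The values of other members, among them TPI1, EGLN3 and ADM, were added after they were seen. Positions, exon lengths and GC come from GENCODE V44 (58207 of 58721 identifiers matched), and sequences from RefSeq.

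Counts were tested with the edgeR 4.0.16 quasi-likelihood test in R 4.3.3 (TMM scaling, filterByExpr), each comparison on its own groups and differences of effects on all 24 libraries, with Benjamini-Hochberg adjustment over all genes. All 37 members passed the low-count filter in every comparison. SE is the log2 fold change divided by the root of F. Tests were checked on simulated counts. Libraries of a group differed from each other by more than sampling noise (chi-square per gene 3.573 to 62.812), and where the labels do not say that they came from separate cultures, p-values measure the spread between these libraries only. Depth was 23065227 to 30140550 counts in the siRNA libraries and 16487394 to 21039750 in the FDI6 experiment, so members at a few reads (CA9 with FDI6, ANKRD37) are imprecise.

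In the knockdowns, libraries with the same number shared their deviations from the group means, with correlations of 0.58 to 0.882 for siMYBL2, 0.557 to 0.913 for siFOXM1 and 0.562 to 0.696 for siBoth, so replicate number pairs them and blocked values are given. They did not for FDI6 (−0.305 to 0.173). Alternatives were DESeq2 1.42.0, other scalings, no filter, a minimum of 10 counts in every library, the block, a GC and length correction with and without the block, and leaving out each library. Leaving out replicate 4 or replicate 2 was added after the data were seen.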

Additional observations from a re-analysis of the deposited data

Results flagged for a closer look

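In groups of 4 libraries, the highest and the lowest library of each member was compared with the nearest of the others by Dixon's ratio, where chance alone sets 1 group in 20 apart, about 5.5 of the 111 tested. Set apart were 23, of which 21 were replicate 4 on the high side. The tests share the same libraries and are not independent, so the number from chance is a rough guide only. The share of all genes set apart by this rule is not given here. The excess therefore cannot be read as particular to these members. In siMYBL2 replicate 4 these were EGLN3 at 42.2 CPM, CA9 at 37.9, BNIP3 at 134.7, SLC2A3 at 307, HK1 at 165.5, HK2 at 21.8, GPI at 876 and ALDOC at 21.4 CPM. In siFOXM1 replicate 4 they were EGLN3 at 57.3 CPM, CA9 at 26.7, BNIP3 at 112, NDRG1 at 145.0, SLC2A3 at 173, GPI at 849.9, ALDOC at 13.4 and ENO2 at 85.4 CPM. In siControl replicate 4 they were EGLN3 at 59.2 CPM, CA9 at 30.5, SLC2A3 at 248, ALDOC at 15.9 and GAPDH at 2565 CPM. The other 2 were PFKFB3, high in replicate 3, at 477 CPM in siFOXM1 and 421 CPM in siControl. What set replicate 4 apart was not tested.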

How the results depend on the processing

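Members called in siBoth numbered 6, and 10 without a filter, 10 with the replicate block, 2 without replicate 2 of both groups and 1 to 5 without single libraries. In FDI6, 7 became 4 with GC and length correction and 4 when the block was added. siControl_Both against siControl gave 9, and 16 with the block, 17 with GC correction and the block, and 9 to 14 without single libraries. The difference of FDI6 and siFOXM1 effects gave 4, and 8 with the block, that of siBoth and siMYBL2 gave 0, and 5 with the block, and that of siMYBL2 and siFOXM1 gave 3, and 5 with the block and 2 to 6 without single libraries. The labels give FDI6, control_FDI6 and the other control groups shared numbers, but their same-numbered libraries did not deviate together, so the block there uses a number only. The shares of all genes called under these alternatives are not given here, so shifts in these counts cannot be read as particular to the members.

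Of 818 values of named members under alternatives, 713 kept direction and side of the threshold, 57 lost and 29 gained significance, and 19 changed sign. The 5 members that passed in siMYBL2 kept direction and side in all 85, while the 8 of siBoth lost 38 of 120 and the 21 of FDI6 lost 19 of 293. The sign changes were in values near 0 or in CA9. In siBoth, HIF1A became 0.02 and 0.01 with GC correction without and with the block, and VEGFA 0.01 with upper-quartile scaling. Without single libraries, log2 fold changes ranged from −0.30 to 0.01 for HIF1A and −0.20 to 0.01 for VEGFA in siBoth, from −1.29 to 1.95 for CA9 and −0.09 to 0.33 for PDK1 in siMYBL2, and from −1.74 to 1.47 for CA9, −0.26 to 0.20 for PDK1 and −0.14 to 0.04 for LDHA in siFOXM1. The outer values of CA9 were those without replicate 4 of the treated group or of siControl. The cause was not tested. Depth limits CA9, ANKRD37 and ALDOC in the FDI6 experiment, where single libraries held few reads.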
